A study of Mus musculus with 8 samples.

Results

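Galanin and the other peptides that nerve fibres and neuroendocrine cells release in the lung were examined through 10 genes, all of which were measured, among 20863 named genes on the array. They comprised 6 peptide genes (Gal, Calca, Grp, Vip, Tac1 and Npy) and 4 receptor genes (Calcrl, Ramp1, Vipr1 and Tacr1). The genes were chosen by name, with earlier results of the same comparison in view, and the brightest spot of each, by its mean over the 8 arrays, was selected on intensity to stand for the gene. Their differences between the groups are therefore descriptions of these mice and not independent tests. Lungs of 4 wild-type mice were compared with lungs of 4 mice over-expressing Fra-2, an AP-1 transcription factor encoded by Fosl2. All 8 mice were 8 weeks old and on the C57BL/6 background, with 1 array per mouse. The promoter that drives the transgene is not given in the sources used here. Levels are log2 of the normalised intensity, differences are transgenic minus wild type, and levels of different genes are not compared, because each spot has its own brightness. A signal under 4.74, the median of all spots, is called dim below.

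Neuropeptides are cut from larger precursors, stored in dense-core vesicles and released from sensory, sympathetic and parasympathetic fibres or from pulmonary neuroendocrine cells, which are rare epithelial cells of the airways. They act on G protein-coupled receptors of vessels, airway smooth muscle, glands and immune cells. Calcitonin gene-related peptide (CGRP), made from Calca, and vasoactive intestinal peptide, made from Vip, dilate vessels, while substance P, made from Tac1, promotes plasma leakage and airway contraction. Much of the peptide in a lung nerve fibre comes from transcripts in cell bodies outside the lung, so lung RNA reports chiefly on cells whose bodies lie in the lung.

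Lung markers were present in both groups: all 10 lung epithelial genes tested, among them Sftpb, a surfactant protein gene, lay above the dim floor on all 8 arrays. Mean correlations with the other arrays of a group were 0.984 to 0.985 for transgenic mice 1 to 3 and 0.982 to 0.983 for wild-type mice 1 to 3. They were 0.976 for wild-type mouse 4 and 0.979 for transgenic mouse 4, and several of the differences below are also given without one of these mice. Fosl2 was read by 2 spots that ran in opposite directions, a brighter spot with a difference of -0.75 (SE 0.31, limma adjusted p = 0.519) and overlapping groups, and a dimmer spot at least 4.06-fold higher in transgenic lung, without overlap (adjusted p = 0.153 over all named spots). Which parts of the transcript, or of the transgene, these spots read is not known here, so the genotype labels have a partial check only.

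Gal, which encodes the precursor of galanin, a peptide of sensory, sympathetic and enteric neurons, was the 1 of the 10 genes whose difference between the groups passed the test. Its log2 levels in wild-type mice 1 to 4 were 8.90, 8.99, 8.38 and 8.41. In transgenic mice 1 to 4 they were 7.17, 7.06, 6.95 and 6.88. Every transgenic value lay below every wild-type value, with a gap of 1.20 between the lowest wild-type and the highest transgenic mouse, and no mouse was near the dim floor. The spread was 0.61 from lowest to highest among wild-type mice and 0.30 among transgenic mice. Group means were 8.67 ± 0.32 in wild-type and 7.02 ± 0.13 in transgenic lung (SD, n = 4 each), which is 3.14-fold lower in transgenic lung (log2 difference -1.65, SE 0.18, 95% interval from -2.05 to -1.25, limma adjusted p = 0.0105 over all genes). In linear units the mean intensity was 414 ± 91.0 in wild-type and 129.8 ± 11.8 in transgenic lung (SD, n = 4 each). In a tissue sample, fewer cells that express a gene and less of its RNA per cell cannot be told apart.

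Gal was 1 of 10 members past the threshold in the falling direction, where 0.0911% of all genes were (0.216% in either direction), and 1 of 10 whose transgenic values all lay below the wild-type values, where 2.54% of all genes did. Because the gene was put on the list with this difference known, nothing is read from these shares. Gal ranked 22nd of all genes by p and was the smallest in size of the 19 falling genes past the threshold. Leaving out transgenic mouse 3 ended this call (adjusted p = 0.0568), as did leaving out both mice numbered 4 (adjusted p = 0.0749), with differences of -1.63 and -1.69. With each other single mouse left out the adjusted p ran from 0.0250 to 0.0498.

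**Figure D1:**
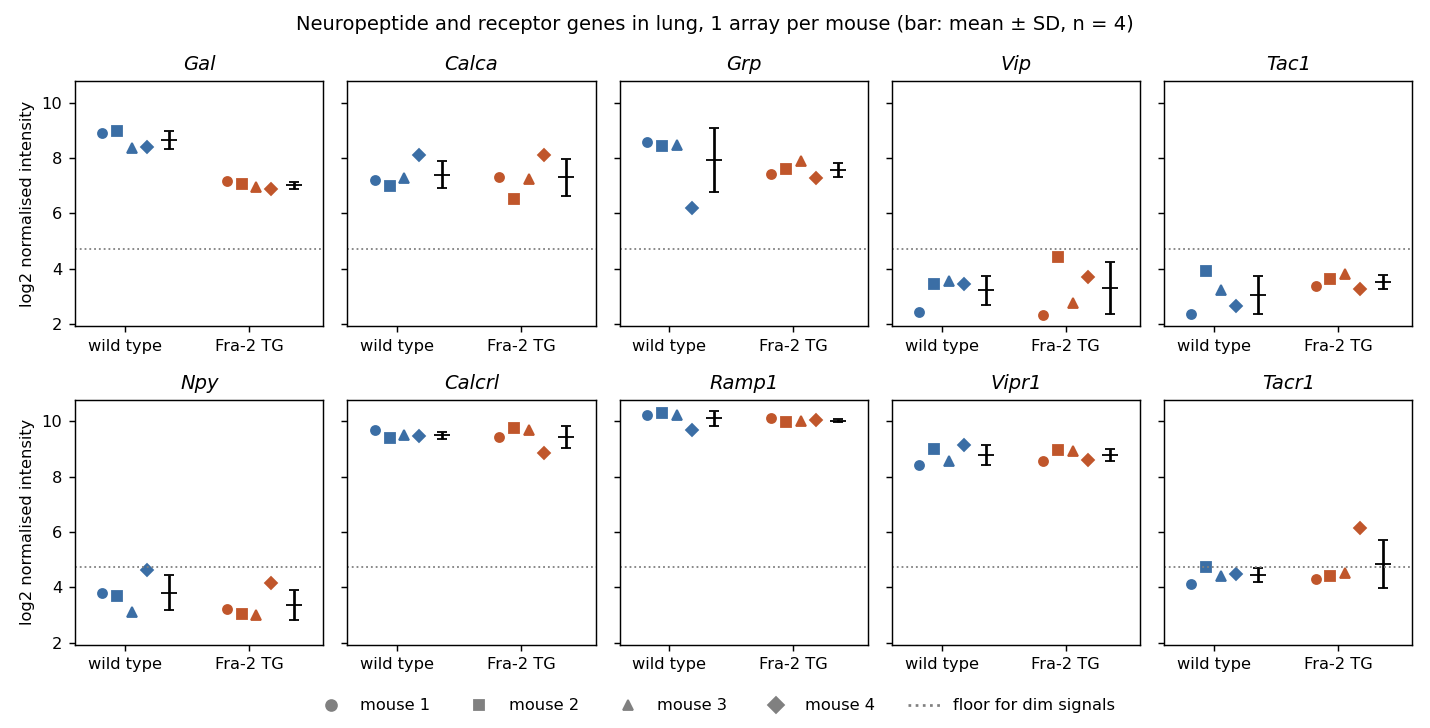
Log2 normalised intensity (vertical axis) of the 6 peptide genes and the 4 receptor genes in 4 wild-type (blue) and 4 Fra-2 transgenic (orange) lungs; each symbol is 1 mouse, bars are mean ± SD and the dotted line is the dim floor of 4.74. Gal is separated between the groups (8.38 to 8.99 against 6.88 to 7.17), Grp is low in wild-type mouse 4 at 6.19, and Vip, Tac1 and Npy lie under the floor in all mice.

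Promoters were read because the transgene encodes a transcription factor. RefSeq windows (GRCm38.p6) from 250 bases before to 50 bases after the start were searched for 9 of the 10 genes. Grp was left out of this search, so nothing is said of its window. The AP-1 motif TGANTCA, searched on both strands, was found in 7.81% of all 32851 windows and in none of the 9. The full cyclic AMP response element TGACGTCA was in 1.79% of windows and likewise in none of the 9. Its core TGACG, which the full element contains, was added to the search after the sequences had been read. It was in 20.8% of windows and in those of Gal, Calca, Ramp1, Vip, Vipr1, Tac1 and Tacr1. Because the core was chosen with these windows in view, nothing is read from how many of them hold it. The TATAAA box was in 13.6% of windows and, among the 9, in that of Vip alone. The windows of Gal, the peptide gene whose difference passed the test, and of Calca, a peptide gene that did not pass the test, are shown 5′ to 3′ on the gene's strand, with the core TGACG in capitals. This core begins at base 20 of the transcribed part for Gal and 65 bases before the start for Calca. The Gal window is at chr19:3414495-3414794 on the minus strand and the Calca window at chr7:114636308-114636607 on the minus strand.
Gal: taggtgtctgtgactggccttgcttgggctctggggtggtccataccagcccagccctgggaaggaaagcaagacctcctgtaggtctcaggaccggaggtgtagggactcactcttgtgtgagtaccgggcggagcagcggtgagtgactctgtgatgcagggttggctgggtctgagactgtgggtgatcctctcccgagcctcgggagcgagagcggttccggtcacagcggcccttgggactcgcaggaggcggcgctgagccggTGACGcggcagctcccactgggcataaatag
Calca: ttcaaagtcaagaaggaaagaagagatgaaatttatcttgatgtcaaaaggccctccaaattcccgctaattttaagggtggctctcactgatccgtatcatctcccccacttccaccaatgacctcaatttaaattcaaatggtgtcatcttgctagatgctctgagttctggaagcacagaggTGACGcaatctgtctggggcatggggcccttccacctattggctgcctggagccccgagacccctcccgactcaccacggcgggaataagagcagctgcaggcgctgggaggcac
A match is a run of letters and was not tested as a binding site. The absence of a match holds for these letters in these windows only.

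The 3 galanin receptor genes were dim in every mouse. Galr1 ranged from 1.61 to 4.38 over the 8 arrays, Galr2 from 3.37 to 4.16 and Galr3 from 3.99 to 4.57. Adjusted p-values in the limma fit were 0.893, 0.812 and 0.992, and no fold is given for signals under the floor. Galp, the gene of a related peptide that also acts on galanin receptors, had a wild-type mean of 4.95 and a transgenic mean of 4.49, with 5 of 8 values under the floor (adjusted p = 0.642).

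The CGRP genes showed no difference past the threshold at any spot. In wild-type lung Calca, which encodes calcitonin and CGRP, was read at 7.21, 6.999, 7.30 and 8.10. In transgenic lung it was read at 7.31, 6.53, 7.24 and 8.13. Mouse 4 was the highest of its group in both genotypes, and the groups overlapped. Wild-type and transgenic means were 7.40 ± 0.48 and 7.30 ± 0.65 (SD, n = 4 each). They differed by -0.10 (SE 0.36, 95% interval from -0.93 to 0.73, limma adjusted p = 0.954). The sign of this difference depended on single mice: it turned to 0.13 when wild-type mouse 4 was left out and to 0.16 when transgenic mouse 2 was. The second Calca spot, assigned to another RefSeq transcript of the gene, had means of 6.98 and 6.83 and a difference of -0.16 (SE 0.30). Which exons the spots read is not known here, so calcitonin and CGRP transcripts are not separated. Calcb, the gene of the second CGRP form, ranged from 5.41 to 6.06 in wild-type and from 5.21 to 5.57 in transgenic mice, with overlap (difference -0.37, SE 0.18, limma adjusted p = 0.594).

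Calcrl and Ramp1 encode the receptor and the accessory protein that together bind CGRP. Calcrl levels were 9.67, 9.38, 9.49 and 9.45 in wild-type mice and 9.44, 9.76, 9.67 and 8.85 in transgenic mice. Transgenic mouse 4 was lowest, and the difference of -0.07 (SE 0.21, 95% interval from -0.54 to 0.41) became 0.13 without it. Ramp1 levels were 10.21, 10.28, 10.23 and 9.68 in wild-type mice and 10.11, 9.96, 10.002 and 10.05 in transgenic mice. Wild-type mouse 4 stood below the other 3. Those 3 lay above all 4 transgenic mice (lowest 10.21 against highest 10.11), a separation seen only with wild-type mouse 4 set aside. The difference was -0.08 (SE 0.16, limma adjusted p = 0.913) over all mice. Without wild-type mouse 4 it was -0.21 (limma adjusted p = 0.528). The other Ramp1 spots had differences of -0.16 (SE 0.17) and -0.14 (SE 0.19), also negative, with overlap between the groups at both.

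The partners of Calcrl in binding adrenomedullin, Ramp2 and Ramp3, did not pass the test. Ramp2 lay close to the arrays' highest value of 16, so little of a rise could be read from it. It stood at 15.47 to 15.93 in wild-type mice, at 15.65 to 15.75 in transgenic mice 1 to 3 and at 14.90 in transgenic mouse 4. Ramp3 ran the other way in that mouse, with 9.48 to 10.15 in wild-type mice, 10.09 to 10.32 in transgenic mice 1 to 3 and 11.91 in mouse 4 (difference 0.84, SE 0.39, limma adjusted p = 0.579). Without that mouse the Ramp3 difference was 0.42. A second Ramp3 spot had a like difference of 0.87 (SE 0.41, limma adjusted p = 0.581 over all named spots). Its groups did not overlap, as in 3.99% of all genes in that direction. Transgenic mouse 4 stood at 11.555 there, transgenic mice 1 to 3 at 9.77 to 9.97 and the highest wild-type mouse at 9.74. Adm, the adrenomedullin gene, ranged from 9.34 to 10.70 in wild-type and from 9.36 to 10.001 in transgenic mice (difference -0.18, SE 0.30, and -0.35 without wild-type mouse 4). Crcp, which encodes a small protein coupled to CGRP receptor signalling, differed by 0.17 (SE 0.10), and its groups did not overlap, as in 3.99% of all genes in that direction (limma adjusted p = 0.658).

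Grp encodes gastrin-releasing peptide, a product of pulmonary neuroendocrine cells. Wild-type lungs 1 to 4 gave log2 levels of 8.58, 8.42, 8.49 and 6.19. Transgenic lungs 1 to 4 gave 7.44, 7.61, 7.89 and 7.30. Wild-type mouse 4 lay 2.31 below the mean of the other 3, below every transgenic mouse, and the other 3 lay above every transgenic mouse. Over all mice the wild-type mean was 7.92 ± 1.16 and the transgenic mean 7.56 ± 0.26 (SD, n = 4 each), with a difference of -0.36 (SE 0.51, 95% interval from -1.54 to 0.82, limma adjusted p = 0.868). Without wild-type mouse 4 the wild-type mean was 8.50 ± 0.08 (SD, n = 3), 1.91-fold above the transgenic mean, and the difference was -0.93 (SE 0.16, limma adjusted p = 0.124). Leaving out both mice numbered 4 gave -0.85 (adjusted p = 0.140). That fit with an offset of 32 added before the log2 gave -0.75 (adjusted p = 0.0295), the 1 setting of 19 in which Grp passed. The difference of Grp was negative in all 19 alternatives, and its size depended on wild-type mouse 4. Why that mouse stood apart was not tested. Grpr, the receptor gene, was dim in all mice (0.67 to 4.01). Nmb, the gene of the related peptide neuromedin B, stood at 8.53 to 8.85 in wild-type and 8.90 to 9.13 in transgenic mice. Its groups did not overlap, as in 3.99% of all genes in that direction (difference 0.32, SE 0.12, limma adjusted p = 0.476). The second Nmb spot differed by 0.11, with overlap.

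**Figure D2:**
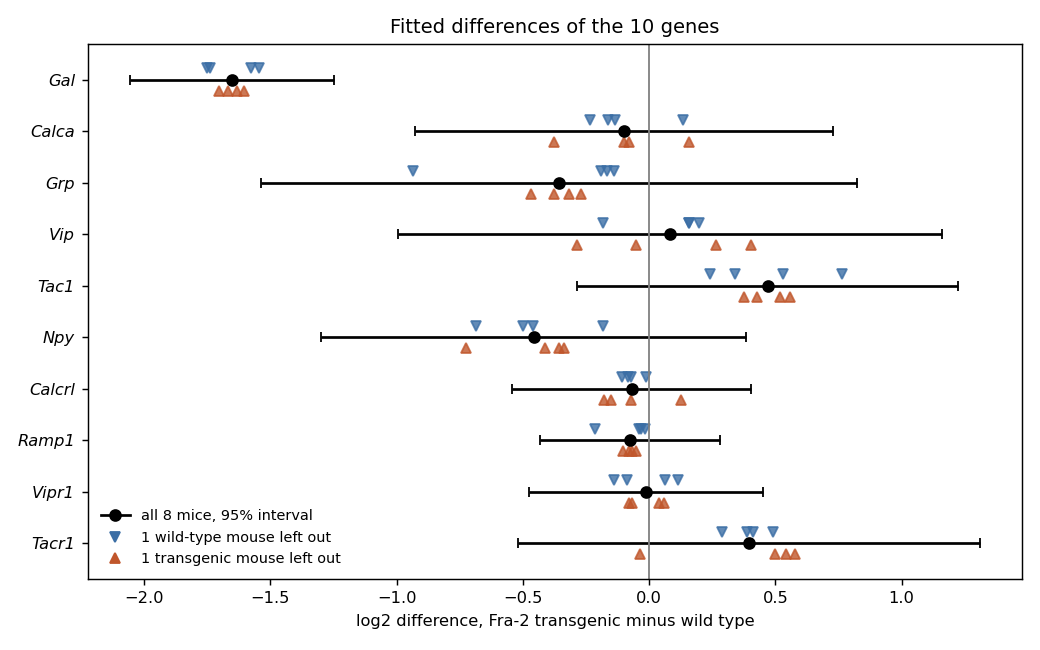
Log2 difference, transgenic minus wild type (horizontal axis), of the 10 genes; black points and lines are the limma estimates with 95% intervals from all 8 mice, blue and orange triangles are estimates with 1 wild-type or 1 transgenic mouse left out. The interval of Gal (-2.05 to -1.25) does not reach 0, those of the other 9 genes include it, and the estimate of Grp moves to -0.93 when wild-type mouse 4 is left out.

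Vip was dim in all 8 mice, at 2.43, 3.45, 3.57 and 3.44 in wild-type and 2.34, 4.41, 2.76 and 3.71 in transgenic mice, so no change in the peptide's gene could be read. Vipr1, which encodes the receptor VPAC1, found on epithelium, vessels and T cells, had levels of 8.40, 9.01, 8.56 and 9.16 in wild-type and 8.56, 8.97, 8.93 and 8.62 in transgenic mice. The groups overlapped almost fully, with means of 8.78 ± 0.36 and 8.77 ± 0.21 (SD, n = 4 each) and a difference of -0.01 (SE 0.20, 95% interval from -0.48 to 0.45). The second Vipr1 spot, with 2 values under the floor in each group, differed by 0.01. Of 9 T cell genes, 8 had an unadjusted limma p under 0.05 with higher values in the same transgenic lungs (5.33% of all genes in that direction), with a median difference of 1.09, and 0 of 9 passed over all genes. Cd5, a T cell surface protein, differed by 1.40 (SE 0.24, limma adjusted p = 0.101), Tcf7, a T cell transcription factor, by 0.85 (SE 0.14, adjusted p = 0.0846) and Lat, an adaptor of the T cell receptor, by 1.15 (SE 0.21, adjusted p = 0.114). The summed T cell signal was 11.23 to 11.93 in wild-type and 12.26 to 12.77 in transgenic mice. The part of this in the level of Vipr1 was not tested. Vipr2, the gene of the second receptor, overlapped between the groups (9.77 to 10.55 against 9.82 to 10.49). Adcyap1r1, which encodes the receptor of the related peptide PACAP, did so too (4.67 to 5.82 against 4.09 to 5.78).

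Tac1, the gene of substance P and neurokinin A, was dim in every mouse, from 2.37 to 3.93 in wild-type and from 3.25 to 3.80 in transgenic lung (adjusted p = 0.707). Tacr1 encodes the substance P receptor. Its levels were 4.14, 4.74, 4.43 and 4.50 in wild-type and 4.30, 4.40, 4.54 and 6.14 in transgenic mice. Transgenic mouse 4 alone stood clear of the floor, 1.73 above the mean of the other 3, and the difference of 0.40 (SE 0.40) became -0.04 without that mouse. Tacr2, the gene of the neurokinin A receptor, stood at 11.9985 to 12.46 in wild-type mice, at 12.10 to 12.33 in transgenic mice 1 to 3 and at 10.83 in transgenic mouse 4 (difference -0.44, SE 0.32, and -0.10 without that mouse). Its second spot was dim in both groups and differed by 0.04.

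Npy encodes neuropeptide Y, a co-transmitter of noradrenaline in sympathetic fibres. It was dim in all 8 mice, at 3.80, 3.68, 3.13 and 4.64 in wild-type and 3.22, 3.05, 2.99 and 4.16 in transgenic mice (adjusted p = 0.746). Mouse 4 was again the highest of each group. Npy1r, the gene of its vascular receptor, ranged from 6.44 to 7.73 in wild-type and from 7.14 to 7.56 in transgenic mice (difference 0.07, SE 0.29, and 0.20 without wild-type mouse 4). Vip, Tac1 and Npy made up the 3 of 10 members with both group means under the floor, against 29.7% of all genes.

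Outside the 10 genes, 12 lists of related genes and cell type markers held 0 genes past the threshold over all genes in the limma fit, in either direction. With trend and robust options in the same test, 5 passed, the T cell genes Cd5, Tcf7, Cd28 and Lat and the nerve gene Stmn2, all of them higher in transgenic lung. Of 20 other neuropeptide genes, 4 had an unadjusted limma p under 0.05 with higher transgenic levels and 0 with lower ones (against 5.33% and 3.82% of all genes), 12 had both group means under the floor, and the median difference was 0.04. The 4 included Ppy, the pancreatic polypeptide gene, at 4.27 to 5.49 in wild-type and 5.25 to 6.73 in transgenic mice (difference 1.18, SE 0.36, adjusted p = 0.361). Another was Cartpt, dim in all mice. Penk, the enkephalin gene, overlapped between the groups (6.20 to 7.45 against 5.99 to 7.48). Of 21 other receptor genes 0 were past an unadjusted p of 0.05 in either direction, 12 had both means under the floor, and the median difference was -0.07. The receptor genes with the smallest p besides Ramp3 were Calcr, the calcitonin receptor gene (4.58 to 5.31 against 3.63 to 4.80), and Npy6r, dim in all mice. Among all genes the median difference was 0.01, and among the 10 genes it was -0.07.

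**Figure D3:**
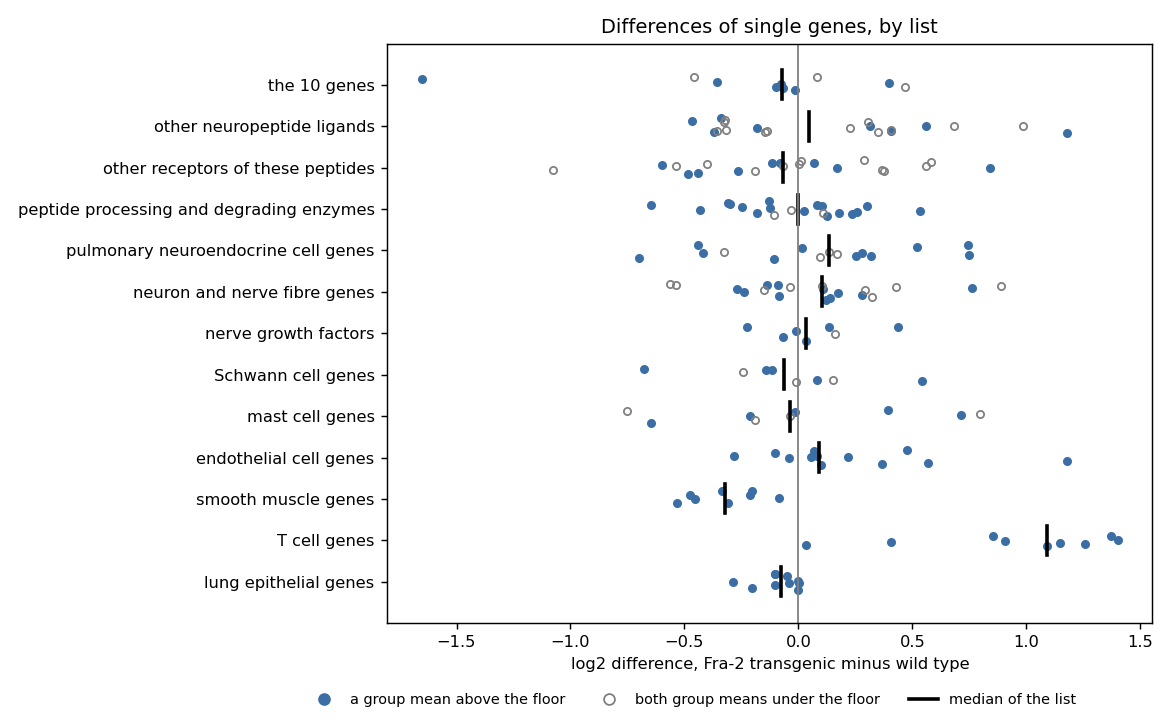
Log2 difference, transgenic minus wild type (horizontal axis), of each measured gene in the 10 genes and 12 further lists (rows); filled points have a group mean above the floor of 4.74, open points have both under it, and black bars are list medians. Gal at -1.65 lies left of every other point, the T cell genes lie to the right with a median of 1.09, and the nerve and neuroendocrine lists have medians of 0.10 and 0.13.

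Enzymes that make and remove peptides were measured by 20 genes, of which 2 had an unadjusted p under 0.05 on the higher side and 2 on the lower (5.33% and 3.82% of all genes), with a median difference of -0.003. Pcsk5, a proprotein convertase, differed by 0.53 (SE 0.20) and Furin, another, by 0.30 (SE 0.12). Cpe, which encodes the carboxypeptidase that trims cut peptides, stood at 11.55 to 12.04 in wild-type and 10.99 to 11.59 in transgenic mice (difference -0.43, SE 0.17, limma adjusted p = 0.509). Pam, the gene of the enzyme that amidates galanin, CGRP and substance P, differed by -0.25 (SE 0.15, and -0.16 without transgenic mouse 4). Mme (neprilysin) and Dpp4, which encode peptidases that cut neuropeptides, differed by -0.13 (SE 0.14) and 0.03 (SE 0.13). Cma1, the mast cell chymase, ranged from 4.38 to 5.42 in wild-type mice and was dim in all 4 transgenic mice, so the wild-type mean was at least 1.25-fold higher (limma adjusted p = 0.477).

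Markers of the cells that could hold neuropeptide RNA were set beside Gal. Of 15 pulmonary neuroendocrine cell genes, 2 reached an unadjusted p under 0.05, both on the higher side (5.33% of all genes), and the median difference was 0.13. The 2 were Ncam1, a neural adhesion molecule also found on other cells (difference 0.75, SE 0.17), and Uchl1, a neuronal hydrolase (0.74, SE 0.17); neither passed over all genes (adjusted p = 0.207 and 0.217). In neither did the groups overlap, as in 3.99% of all genes in that direction. Of 2 dimmer Ncam1 spots, 1 had a wild-type mean under the floor (difference 0.47, SE 0.28) and 1 had both means under it (difference -0.03, SE 0.41). The defining markers Chga and Insm1 had both group means under the floor, with 4 of 8 values above it in each. Of the 15 genes, 11 lay above the floor on all 8 arrays, and 10 had positive and 5 negative differences. Among the 11, Chgb differed by 0.02 (SE 0.18), Syp by -0.11 (SE 0.14) and Ddc by 0.25 (SE 0.17), each with overlap. Resp18, a peptide vesicle gene, differed by -0.70 (SE 0.34, and -0.43 without wild-type mouse 4) and overlapped. The summed signal of the list was 12.78 to 13.04 in wild-type mice, 12.80 to 12.89 in transgenic mice 1 to 3 and 12.05 in transgenic mouse 4. Bright spots weigh most in such a sum: with Ccn3 (also called Nov) left out, the Snap25 spot made up 61.6% to 84.1% of it. Without Snap25 and Ccn3 the sum was 10.31 to 10.52 in wild-type and 10.43 to 10.64 in transgenic mice, with overlap.

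Of 20 neuron and nerve fibre genes, 1 reached an unadjusted p under 0.05 (5.33% of all genes on that side). It was Stmn2, a growth-cone protein gene, at 10.55 to 10.99 in wild-type and 11.36 to 11.75 in transgenic mice (difference 0.76, SE 0.16, limma adjusted p = 0.180). The summed signal of the list was 12.32 to 12.60 in wild-type and 12.67 to 12.81 in transgenic mice. Stmn2 made up 24.2% to 48.1% of it, and without Stmn2 the sums overlapped (11.60 to 12.20 against 11.86 to 11.97). The list's median difference was 0.10, with 9 of 20 genes negative. Tubb3, a neuronal tubulin, ranged from 3.03 to 4.70 in wild-type and from 4.23 to 5.32 in transgenic mice, with both group means under the floor. Gap43, another growth-cone protein gene, ranged from 9.25 to 9.99 and from 9.80 to 10.08, with overlap. Th, the sympathetic marker tyrosine hydroxylase, overlapped (5.83 to 6.26 against 5.85 to 6.28), and Trpv1, the capsaicin receptor of sensory fibres, was dim in all mice. Prph, a peripheral nerve filament, stood at 8.02 in wild-type mouse 4 and at 4.24 to 6.30 in the other 7. Among 7 nerve growth factor genes, Artn, which encodes artemin, a growth factor of sensory and sympathetic neurons, stood at 7.11 to 7.31 in wild-type and 7.43 to 7.78 in transgenic mice (difference 0.44, SE 0.12, limma adjusted p = 0.314). Nrtn, the neurturin gene, and Gdnf, a related factor, differed by -0.23 (SE 0.14) and 0.14 (SE 0.26) with overlap, and the latter was -0.02 without wild-type mouse 4.

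Medians of the Schwann cell (8 genes), mast cell (9) and endothelial (12) lists were -0.06, -0.04 and 0.09. In the Schwann cell list, Cnp, a myelin enzyme, differed by 0.54 (SE 0.20) without overlap (3.99% of all genes in that direction), and Gfap was dim in all mice. Erbb3, the neuregulin receptor gene, had a transgenic mean under the floor, with 4.75 to 5.20 in transgenic mice 1 to 3 and 2.70 in mouse 4. Its wild-type mean was at least 1.13-fold higher, and the log2 difference was -0.11 without transgenic mouse 4. In the mast cell list, Kit, the stem cell factor receptor gene, differed by 0.39 (SE 0.24, and 0.23 without wild-type mouse 4), and Mrgprb2, a receptor through which substance P activates mast cells, was dim in all mice. In the endothelial list, 9 differences were positive and 3 negative. Of the 12 genes, 2 had an unadjusted limma p under 0.05, both on the higher side (5.33% of all genes). Emcn, the endomucin gene, differed by 1.18 (SE 0.33, limma adjusted p = 0.315), Tie1, a receptor kinase, by 0.57 (SE 0.18) and Pecam1, an adhesion molecule, by 0.48 (SE 0.27). The negative differences were those of Eng (-0.28, SE 0.29), Esam (-0.10, SE 0.15) and Kdr (-0.04, SE 0.17). Pecam1 stood at 9.51 in wild-type mouse 4, and without that mouse its difference was 0.20. Among lung epithelial genes, Foxj1 of ciliated cells differed by -0.29 (SE 0.17, and -0.15 without wild-type mouse 4) and Ager of alveolar cells by -0.20 (SE 0.25, and -0.02 without transgenic mouse 4). Sftpb lay close to the arrays' highest value of 16, so little of a difference could be read from it. All 8 smooth muscle genes had negative differences, with a median of -0.32, and 4 of them an unadjusted p under 0.05 (3.82% of all genes in that direction; 9938 of 20863 genes had negative differences). Mylk, the myosin light chain kinase gene, differed by -0.53 (SE 0.14, limma adjusted p = 0.285), Cnn1 (calponin) by -0.48 (SE 0.17) and Tagln (transgelin) by -0.31 (SE 0.13). The part of these markers in the difference of Gal was not tested.

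Among 13250 other genes above the floor on all 8 arrays, those whose pattern was most like that of Gal were found by Pearson's r over the 8 arrays. Because the arrays fall into 2 groups, r mainly carries the group difference, so r with the group means removed is given beside it, and both are descriptions. The highest were Marco (0.97, and 0.57 with group means removed), a macrophage scavenger receptor, and Xpnpep2 (0.96 and 0.46), which encodes a membrane aminopeptidase that trims peptides such as bradykinin. Mtss2 (0.96 and 0.29), Tab2 (0.95 and 0.66), an adaptor of innate immune signalling, and Rasa4 (0.95 and 0.33), a Ras GTPase-activating protein, followed. The differences of Mtss2, Tab2 and Rasa4 were -0.77, -0.31 and -0.84, none past the threshold (limma adjusted p = 0.0506, 0.432 and 0.0539). Xpnpep2 levels were 8.99, 9.27, 9.05 and 9.03 in wild-type and 7.64, 7.52, 7.40 and 6.76 in transgenic mice, a 3.37-fold lower mean in transgenic lung (log2 difference -1.75, SE 0.20, limma adjusted p = 0.0151). Its second spot was dim in both groups and differed by 0.04. The lowest were Adgrg3 (-0.99, and -0.87 with group means removed), an adhesion receptor, Pcdhb3 (-0.98 and -0.62), a protocadherin, and Sidt1 (-0.98 and -0.82). Sidt1 differed by 0.54 and was not past the threshold (SE 0.12, limma adjusted p = 0.193). Adgrg3 rose from 9.34 ± 0.33 to 10.68 ± 0.17 (SD, n = 4 each; log2 difference 1.34, SE 0.19, limma adjusted p = 0.0418), with 8.96 to 9.65 in wild-type and 10.51 to 10.92 in transgenic mice.

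**Figure D4:**
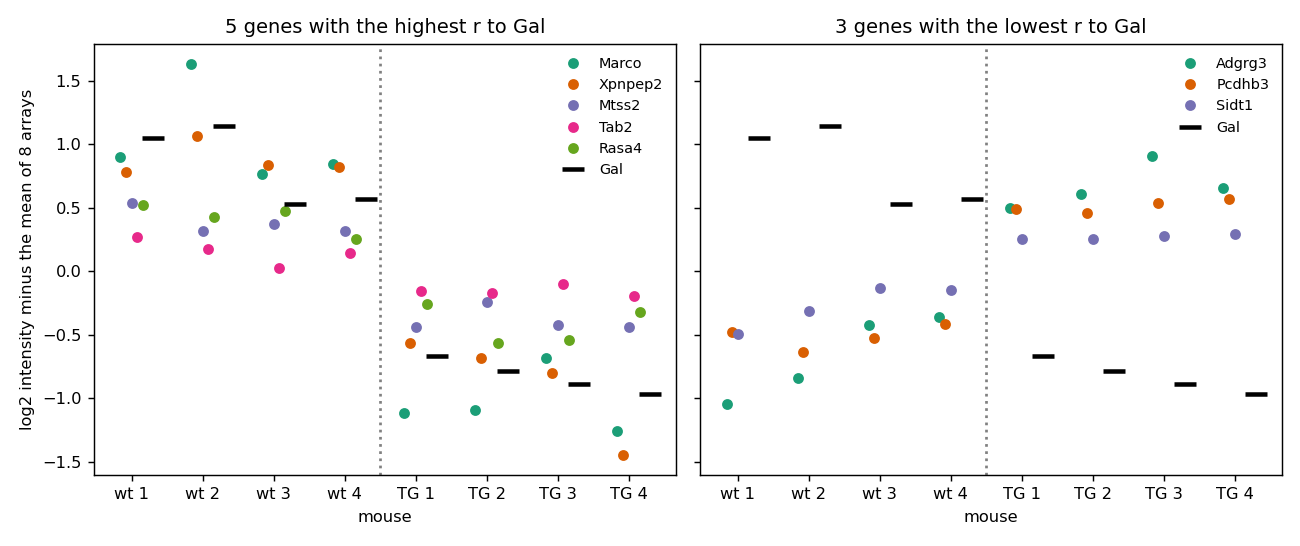
Log2 intensity minus the mean of the 8 arrays (vertical axis) by mouse (horizontal axis, wild-type left and transgenic right of the dotted line) for Gal (black dashes) and for the 5 genes with the highest and the 3 with the lowest r to it (coloured points). Marco and Xpnpep2 (r = 0.97 and 0.96) follow the drop of Gal, and Adgrg3 (r = -0.99) runs opposite to it.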

How the data were processed

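The table the authors deposited holds linear intensity for 62976 spots of 8 single-colour (Cy5) Agilent arrays. R 2.15.1 with limma 3.14.4 is listed in the submitters' processing notes, without the steps. All arrays had the same median (26.6); how the background was corrected is not given there. Symbols from the platform annotation were updated by RefSeq accession (GRCm38.p6; 29050 spots matched, 2933 symbols replaced). The brightest spot stood for each of 20863 genes. log2 values were fitted with limma 3.58.1 in R 4.3.3 (group as the only term, Benjamini-Hochberg over all genes, threshold 0.05); Python 3.11.15 and matplotlib 3.10.9 drew the figures. The fit was also run on simulated data with independent noise, which checks the code and not the results above. The members, lists and tests were chosen with earlier results of these data known. The text names all members and Fosl2 with every spot, each list's genes past the threshold or among its 3 smallest p, and genes most like Gal; further receptors, peptides, enzymes and markers were picked for their roles after values were seen. Some genes of the lists are not reported here. Alternatives were offsets, scalings, a filter on dim genes, other fits and left-out mice. Same-numbered mice were not treated as pairs, because the labels give only a shared number. Their deviations from group means correlated at -0.01 to 0.05, which cannot exclude a pairing. The number of arrays limits the precision.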

Additional observations from a re-analysis of the deposited data

Results flagged for a closer look

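Each group of 4 values of 79 of the named genes was examined for a value far from the other 3. About 1 in 20 independent groups would hold one. These groups share 8 arrays, and some genes were picked after values were seen, so no excess over that rate can be read. Of the 158 groups, 19 held such a value. Wild-type mouse 4 held 5 of them, all low: Grp at 6.19, Ramp1 at 9.68, Penk at 6.20, Kit at 11.54 and Gfap at 3.46. Transgenic mouse 4 held 8: Tacr1 at 6.14, Ramp3 at 11.91 and Uchl1 at 6.22 stood high, and Ramp2 at 14.90, Tacr2 at 10.83, Snap25 at 11.32, Sftpb at 15.59 and Ager at 13.01 stood low. The other 6 were Vip at 2.43 and Nrtn at 9.77 in wild-type mouse 1, Marco at 12.44 in wild-type mouse 2, Cartpt at 3.84 in transgenic mouse 1, Mtss2 at 9.77 in transgenic mouse 2 and Emcn at 11.04 in transgenic mouse 3.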

How the results depend on the processing

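Gal kept a negative difference in all 19 alternatives (-1.75 to -1.44) and was past the threshold in 16. It was not with the replicate block (difference -1.65, limma adjusted p = 0.0919), without transgenic mouse 3 or without both mice numbered 4 (-1.69). For that block the labels give only a shared number, and whether same-numbered mice were paired is not known. Leaving out 1 mouse gave -1.75 to -1.54. Members past the threshold numbered 1, and 0 with the replicate block, 0 without transgenic mouse 3, 0 without both mice numbered 4 and 2 in that setting with an offset of 32 (Gal and Grp, -0.75). Ramp1, Npy and Tac1 kept their sign throughout, as did Grp (-0.93 to -0.14). Signs turned for the uncalled members Calca, Calcrl, Vip and Vipr1, which were near 0, and for Tacr1, with a difference of 0.40. Leaving out 1 mouse gave -0.38 to 0.16 for Calca, -0.18 to 0.13 for Calcrl, -0.29 to 0.41 for Vip, -0.14 to 0.11 for Vipr1 and -0.04 to 0.58 for Tacr1. The mice that turned the sign were wild-type 4 and transgenic 2 for Calca, transgenic 4 for Calcrl and for Tacr1 (to -0.0372), wild-type 1 and transgenic 2 and 4 for Vip, and wild-type 2 and 4 and transgenic 1 and 4 for Vipr1. With the mean of its spots Vipr1 was 0.000331. Without both mice numbered 4, and then with the offset of 32 as well, Calcrl was 0.11 and 0.11, Vipr1 0.16 and 0.15, and Tacr1 -0.0205 and -0.0125. The cause was not tested. Genes past the threshold numbered 45 of all genes, and 80 and 88 with offsets of 16 and 32, 71 with dim genes left out (fewer genes tested), 118 with trend and robust options, 5 with the replicate block, 17 without both mice numbered 4 and 200 in that setting with the offset of 32. They numbered 17 to 38 with 1 mouse left out: 27, 17 and 20 when wild-type mouse 1, 2 or 3 was, and 29, 27 and 20 when transgenic mouse 1, 2 or 3 was. Genes of the other lists past the threshold numbered 0, and 2, 2, 1, 5 and 5 with the offsets of 16 and 32, dim genes left out, trend and robust options, and the offset of 32 without both mice numbered 4. The other scalings left the values unchanged, since the arrays shared 1 distribution. Dim signals limit what Vip, Tac1, Npy and the galanin receptors can show.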

Other observations

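In transgenic mouse 4, Nts, the gene of neurotensin, a peptide of gut and nerve cells, was read at 7.14, against a range of 4.09 to 5.34 over the other 7 mice. The same mouse held the highest Tacr1 (6.14) and Ramp3 (11.91). Nts was singled out after its values were seen.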
